A study of Mus musculus with 20 samples.

Results

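The oxidative phosphorylation subunits are the proteins that make up the 5 enzyme complexes of the inner mitochondrial membrane, and their genes were followed in kidney and liver of male mice dosed with JQ1. Members were chosen by gene symbol: names starting with mt-Nd, mt-Co, mt-Cytb or mt-Atp for the mitochondrial genome, and Nduf with a subunit letter and number, Sdha to Sdhd, Uqcr, Cox4 to Cox8 or Atp5 for the nucleus, each with at least 1 transcript annotated as protein coding. The rule gave 101 of 55642 genes, 13 in the mitochondrial genome and 88 in the nucleus, while 17 further genes matched by name but had no protein-coding transcript and were left out. Complex I held 7 mitochondrial and 37 nuclear members, complex II 4 nuclear members, complex III 1 and 8, complex IV 3 and 21, and complex V 2 and 18. After a filter on low counts, 95 members were tested in kidney (all 13 mitochondrial and 82 nuclear) and 92 in liver (13 and 79).

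Complexes I to IV pass electrons from NADH and succinate to oxygen, complexes I, III and IV pump protons as they do so, and complex V, the ATP synthase, uses the returning protons to make ATP. Complex II is built from nuclear genes alone, whereas the other complexes combine subunits from both genomes. The mitochondrial RNAs are cut from long polycistronic transcripts, and most of the mRNAs are given short poly(A) tails. Proximal tubule cells of the kidney and hepatocytes are both rich in mitochondria.

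Bulk poly(A) RNA-seq with single-end reads was available for 20 libraries of the inbred strain DBA/2J, 10 per organ. JQ1, a small molecule that occupies the acetyl-lysine pocket of the BET bromodomain proteins, was injected into the peritoneum at 50 mg/kg every day for 3 weeks. Each organ had 3 JQ1 treatment libraries from 10-week-old mice at the end of dosing, 3 JQ1 recovery libraries from 16-week-old mice after withdrawal, and 4 vehicle libraries (0 mg/kg), of which 3 came from the treatment time and 1 from the recovery time. The labelled ages differ by 6 weeks, no transgene or mutation is named for any group, and the labels do not tie a kidney library to a liver library of the same mouse. Nothing in the labels says that each library is a separate mouse, so p-values measure the spread between these libraries.

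Estimated counts per library summed to 13952510 to 26895318 reads in kidney and 11968500 to 17529910 reads in liver. Some libraries stood apart before any comparison was made. Liver JQ1 recovery libraries 2 and 3 carried 1905 and 552 CPM (reads of a gene scaled to a common library size) of 6 proximal tubule marker genes, against 0.316 to 4.37 CPM in the other 8 liver libraries and 4408 to 5411 CPM in the kidneys, and their 5 hepatocyte markers summed to 30260 and 53670 CPM against 57960 to 87400 CPM in the other livers. Kidney JQ1 treatment 1 carried 330.5 CPM of 6 white adipocyte markers, against 18.4 to 101 CPM in the other 9 kidneys, and liver vehicle treatment 1 carried 14.8 CPM of 4 skeletal muscle markers, against 0 to 3.39 CPM in the other 9 livers.

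Of the 3 members called in JQ1 treatment kidneys against vehicle, 2 were mitochondrial. Shown next are 3 stretches of sequence that bear on how reads of mitochondrial members could be counted. The sequences below are GENCODE M21 transcripts placed on GRCm38, and 75 bases is the length of a read. mt-Atp8 and mt-Atp6 lie on a single mRNA, and their reading frames share 43 bases at chrM:7927-7969. The capitals mark the start codon of mt-Atp6.
mt-Atp8 and mt-Atp6: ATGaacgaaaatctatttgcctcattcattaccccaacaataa
The first 75 bases of mt-Nd3 at chrM:9459-9533 and of its nuclear copy Gm28438 at chr1:24613045-24613119 on the minus strand are shown because the pair differs at a single base over 345 aligned bases, T3C, counted from 1 at the start of the mt-Nd3 transcript and marked in capitals.
mt-Nd3: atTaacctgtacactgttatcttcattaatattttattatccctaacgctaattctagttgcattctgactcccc
Gm28438: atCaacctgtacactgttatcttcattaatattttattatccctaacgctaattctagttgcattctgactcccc
The 75 bases of mt-Co1 at chrM:6381-6455 and of Gm29216 at chr1:24616123-24616197 on the minus strand hold all 6 differences of that pair over 492 aligned bases, again in capitals: T1056A, C1057T, A1059G, A1060G, C1062A and A1066T, counted from the start of the mt-Co1 transcript.
mt-Co1: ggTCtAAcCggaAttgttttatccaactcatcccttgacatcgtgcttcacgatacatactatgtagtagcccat
Gm29216: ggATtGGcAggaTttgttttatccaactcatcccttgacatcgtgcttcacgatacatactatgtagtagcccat

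In vehicle mice the mitochondrial members took the larger share of reads in both organs. They held 15.4 to 16.0% of all kidney reads and 9.17 to 10.4% of all liver reads, against 2.44 to 2.74% and 1.47 to 1.71% for the nuclear members. Per length, as CPM without TMM scaling per kilobase of annotated transcript, mt-Atp6, a membrane subunit of the ATP synthase, was highest in kidney at 36540 ± 1181 (SD, n = 4), followed by mt-Co2 at 31090 ± 1673 and mt-Nd2 at 24560 ± 1963. mt-Nd6, the single member read from the other mitochondrial strand, was lowest at 27.3 ± 4.90, and mt-Co1 stood at 2329 ± 223. How fully poly(A) selection captured each of these RNAs was not tested. mt-Atp8 stood at 3831 ± 445, far under mt-Atp6 of the same mRNA.

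TPM, which also divides by the length of the transcript that a fragment can start from, places mt-Atp8 first instead, at 60580 in kidney. The gene is annotated with 204 bases, and the effective length used in the deposited values was 9.38 bases in every library, so the TPM of this gene and of other short members rests on that estimate. Among nuclear members tested in the organ, the extremes by mean TPM in vehicle kidneys were Ndufs1 (71.4) and Ndufa5 (1507) in complex I, Sdhc (67.5) and Sdhb (223) in complex II, Uqcrc1 (80.3) and Uqcr10 (1404) in complex III, Ndufa4l2 (3.25) and Cox8a (2179) in complex IV, and Atp5g2 (1.18) and Atp5md (3250) in complex V. In vehicle livers they were Ndufs1 (17.3) and Ndufa5 (479.5), Sdhc (19.8) and Sdhb (104), Uqcrc1 (20.6) and Uqcr11 (651), Ndufa4l2 (0.241) and Cox6c (759), and Atp5pb (75.3) and Atp5md (1386). Among these tested members the same gene was lowest in both organs for complexes I to IV. Ndufb11b and Cox4i2, which did not pass the filter, lay lower still. In liver, however, Cox8b (0.746), Cox6b2 (0.456) and Cox8c (0.400) did not pass it either and lay above Ndufa4l2.

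To ask whether JQ1 altered the subunits in kidney, the 3 JQ1 treatment libraries were compared with the 4 vehicle libraries. Most subunits lay close to vehicle after 3 weeks of JQ1, and 3 of 95 tested members rose, with none lower: mt-Atp8, mt-Co1 and the nuclear complex I gene Ndufa12. Over all 17158 genes tested, 4.13% were called at an edgeR adjusted p below 0.05, 1.4% higher and 2.73% lower. With library size alone in place of TMM scaling, 1 member was higher (mt-Atp8) and 2 lower (Uqcrfs1 and Cox7a1), and over all genes 100 were higher and 744 lower, against 240 and 469 with TMM. The unadjusted p was below 0.05 for 18 members, and DESeq2 called 10, 8 higher and 2 lower, beside 6.07% of all genes. The median log2 fold change was 0.18 over the 13 mitochondrial members, 0.00 over the 82 nuclear members and -0.01 over all genes. In bulk tissue fewer cells of a type and less RNA per cell cannot be told apart.

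mt-Atp8, which encodes a small membrane subunit of the ATP synthase, measured 1084, 1051 and 1108 CPM in the JQ1 treatment kidneys, against 795, 848 and 772 CPM in the vehicle kidneys of the same time and 634 CPM in the vehicle kidney of the recovery time. Every JQ1 library was above every vehicle library. The log2 fold change was 0.50 ± 0.09 (SE; edgeR quasi-likelihood test, Benjamini-Hochberg adjusted p = 0.00232). Without the older vehicle library as a control the value was 0.43 (adjusted p = 0.00249), and it was called in 7 of 7 fits that left out a library and in all 11 other fits run.

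mt-Atp6 of the same mRNA measured 26620, 27390 and 28390 CPM in JQ1 treatment kidneys, against 23920, 24840, 23190 and 25120 CPM in vehicle kidneys. The groups did not overlap either, but the log2 fold change of 0.18 ± 0.07 did not pass the test (adjusted p = 0.153). mt-Atp8 reads per 100 mt-Atp6 reads, a ratio formed after the values had been seen, were 4.07, 3.84 and 3.90 in JQ1 treatment kidneys, 3.16, 2.79 and 2.99 in JQ1 recovery kidneys, and 3.32, 3.41, 3.33 and 2.52 in vehicle kidneys. The JQ1 treatment libraries were therefore the 3 highest of the 10 kidneys, and the lowest was the 16-week-old vehicle kidney.

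mt-Co1, the catalytic core subunit of cytochrome c oxidase, measured 4542, 4076 and 4376 CPM in JQ1 treatment kidneys, against 3502, 3769, 3749 and 3021 CPM in vehicle kidneys, the last of these being the 16-week-old library. The groups did not overlap, and the log2 fold change was 0.30 ± 0.08 (edgeR adjusted p = 0.0389). The call did not hold once reads of the near-identical copy were counted with the gene. Gm29216 took 7071, 0 and 393 CPM in JQ1 treatment kidneys and 0, 2703, 104 and 787 CPM in vehicle kidneys, so its part of the summed reads ran between 0 and 60.9%. Against the vehicle kidneys of the same time alone, mt-Co1 stood at 0.24 (adjusted p = 0.0677). Nor was it called with library size alone, length-scaled counts, a fit restricted to the compared libraries or a replicate block. It was called with DESeq2, relative log expression factors, no low-count filter, protein-coding transcripts only and mitochondrial genes left out of library size. The gene and copy together gave a log2 fold change of 0.63 with an adjusted p of 0.523, and the call for the gene alone was lost in 4 of 7 fits that left out a library, namely kidney JQ1 treatment 1, kidney JQ1 treatment 3, kidney vehicle treatment 1 and kidney vehicle recovery 1 (adjusted p = 0.11, 0.128, 0.083 and 0.0705 in turn). The plot of reads on mt-Co1 and its copy shows that kidney JQ1 treatment 1 carries most of the difference in the sum.

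**Figure D1:**
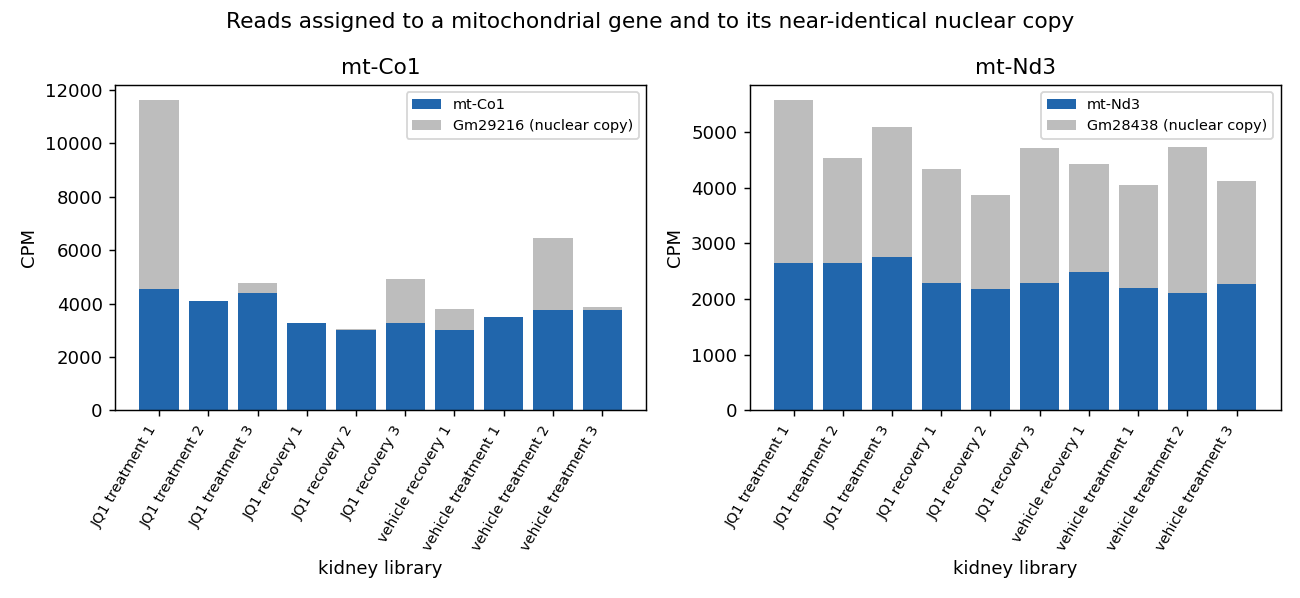
Reads of mt-Co1 (left) and mt-Nd3 (right) and of their near-identical nuclear copies in the 10 kidney libraries, as stacked bars in CPM after TMM scaling. For mt-Co1 the copy ran between 0 and 7071 CPM with no order by group, and for mt-Nd3 the copy took 41.8 to 55.4% of the summed reads in every kidney library.

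Ndufa12, a nuclear accessory subunit of complex I, measured 194, 199.9 and 195 CPM in JQ1 treatment kidneys, against 157, 165, 170.0 and 166 CPM in vehicle kidneys, with no overlap. Its log2 fold change was 0.26 ± 0.07 (edgeR adjusted p = 0.0466). The call sat at the threshold, since leaving out any of the 7 libraries moved the adjusted p to between 0.0535 and 0.126. Ndufa12 was not called against the vehicle kidneys of the same time alone. Nor was it called with library size alone, length-scaled counts, protein-coding transcripts only or a replicate block. It was called with DESeq2, with relative log expression factors and without a low-count filter.

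Among the other mitochondrial members of complex I, mt-Nd5 gave 3219, 3085 and 3376 CPM in JQ1 treatment kidneys, against 2497, 2904, 2608 and 2221 CPM in vehicle kidneys. mt-Nd3 gave 2649, 2638 and 2752 CPM against 2202, 2109, 2267 and 2489 CPM. Both pairs of groups were apart, yet the log2 fold changes of 0.34 ± 0.09 for mt-Nd5 and 0.24 ± 0.07 for mt-Nd3 missed the threshold in edgeR (adjusted p = 0.0517 and 0.0579), while DESeq2 placed both under it (adjusted p = 0.0147 and 0.00377). For mt-Nd3 the value was 0.30 against the vehicle kidneys of the same time alone (edgeR adjusted p = 0.0134) and 0.23 with Gm28438 added (adjusted p = 0.158). mt-Nd5 was not called against the vehicle kidneys of the same time alone.

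The remaining mitochondrial members gave log2 fold changes in kidney between -0.07 for mt-Nd6 and 0.19 for mt-Nd2, and none passed the test. mt-Nd1, mt-Nd2, mt-Nd4 and mt-Nd4l stood at 0.13, 0.19, 0.15 and 0.18, mt-Cytb of complex III at 0.06, and mt-Co2 and mt-Co3 at 0.09 and 0.14. In 6 of the 13 genes (mt-Atp6, mt-Atp8, mt-Co1, mt-Co3, mt-Nd3 and mt-Nd5) every JQ1 treatment library was above every vehicle library, against 6.85% of all genes tested, and in none was every JQ1 library below. These genes share their precursor RNAs and their libraries and are not independent of each other.

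**Figure D2:**
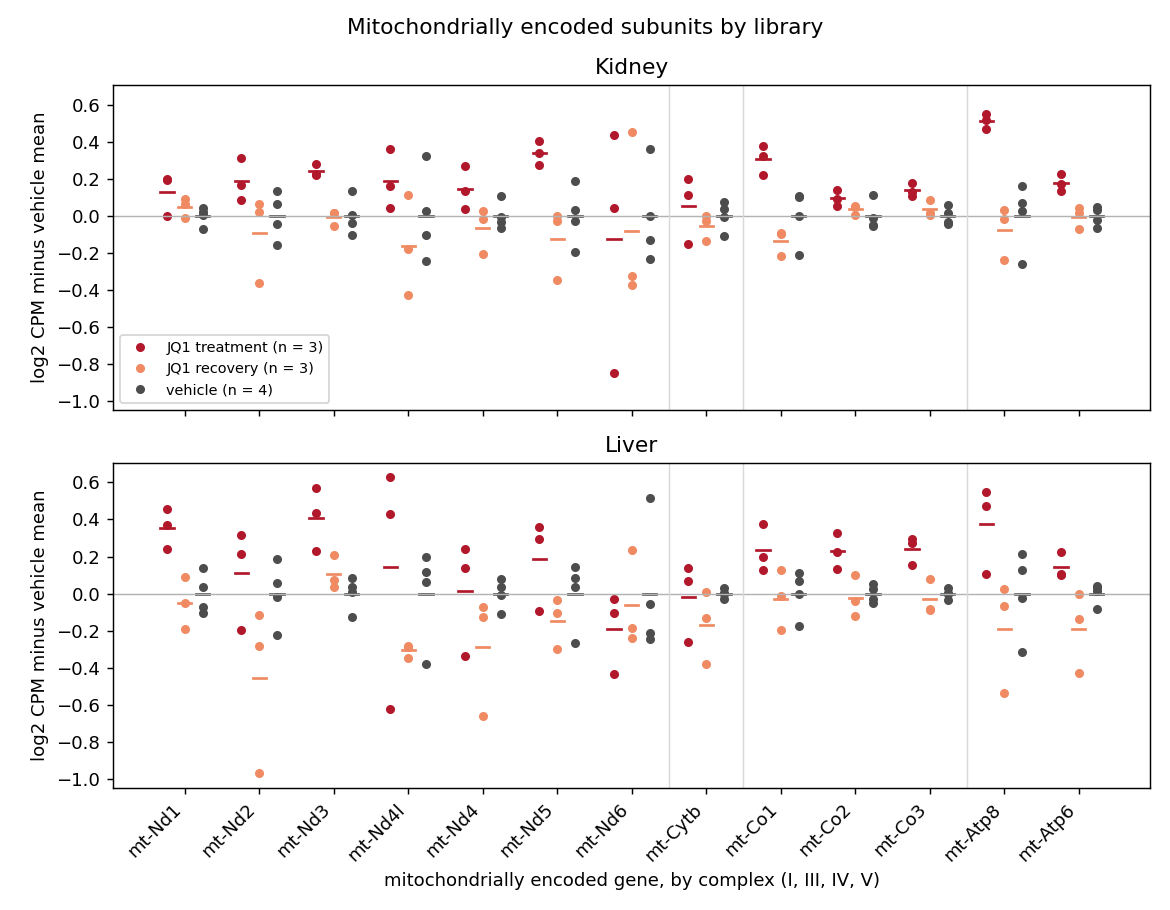
Level of the 13 mitochondrially encoded members in each library, as log2 CPM (TMM scaled) minus the vehicle mean, for kidney (top) and liver (bottom). Points are libraries, short lines are group means, and grey lines part the complexes. In kidney the JQ1 treatment libraries of mt-Atp8 (1051 to 1108 CPM) lie above the libraries of JQ1 recovery (644 to 776 CPM) and vehicle (634 to 848 CPM).

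Nuclear members of the kidney lay on either side of 0, with 40 of 82 above. The median log2 fold change was 0.00 in complex I, -0.01 in complex II, 0.09 in complex III, -0.03 in complex IV and 0.01 in complex V, against 0.18, 0.06, 0.14 and 0.34 for the mitochondrial members of complexes I, III, IV and V. Without TMM scaling the median of all genes moved to -0.10, that of the mitochondrial members to 0.08 and that of the nuclear members to -0.10, so the distance between the 2 genomes stayed while the zero shifted.

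In the nuclear set, 7 members were above vehicle in every JQ1 treatment kidney (Cox5a, Ndufa12, Ndufa7, Ndufb6, Ndufc2, Ndufs4 and Ndufv2) and 4 below (Atp5e, Cox7a1, Ndufa9 and Uqcrfs1), or 8.54% and 4.88% against 6.85% and 8.31% of all genes tested. Uqcrfs1, the Rieske iron-sulfur protein of complex III, measured 349.8, 366 and 375 CPM in JQ1 treatment kidneys, against 439.7, 385.5, 443.5 and 445 CPM in vehicle kidneys. Its log2 fold change of -0.24 ± 0.07 missed the threshold (edgeR adjusted p = 0.0583) and passed it in DESeq2 (adjusted p = 0.0148), and it is named here after its values were seen, as are Ndufb6 (0.22, adjusted p = 0.0598) and Ndufa7 (0.22, adjusted p = 0.0615).

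**Figure D3:**
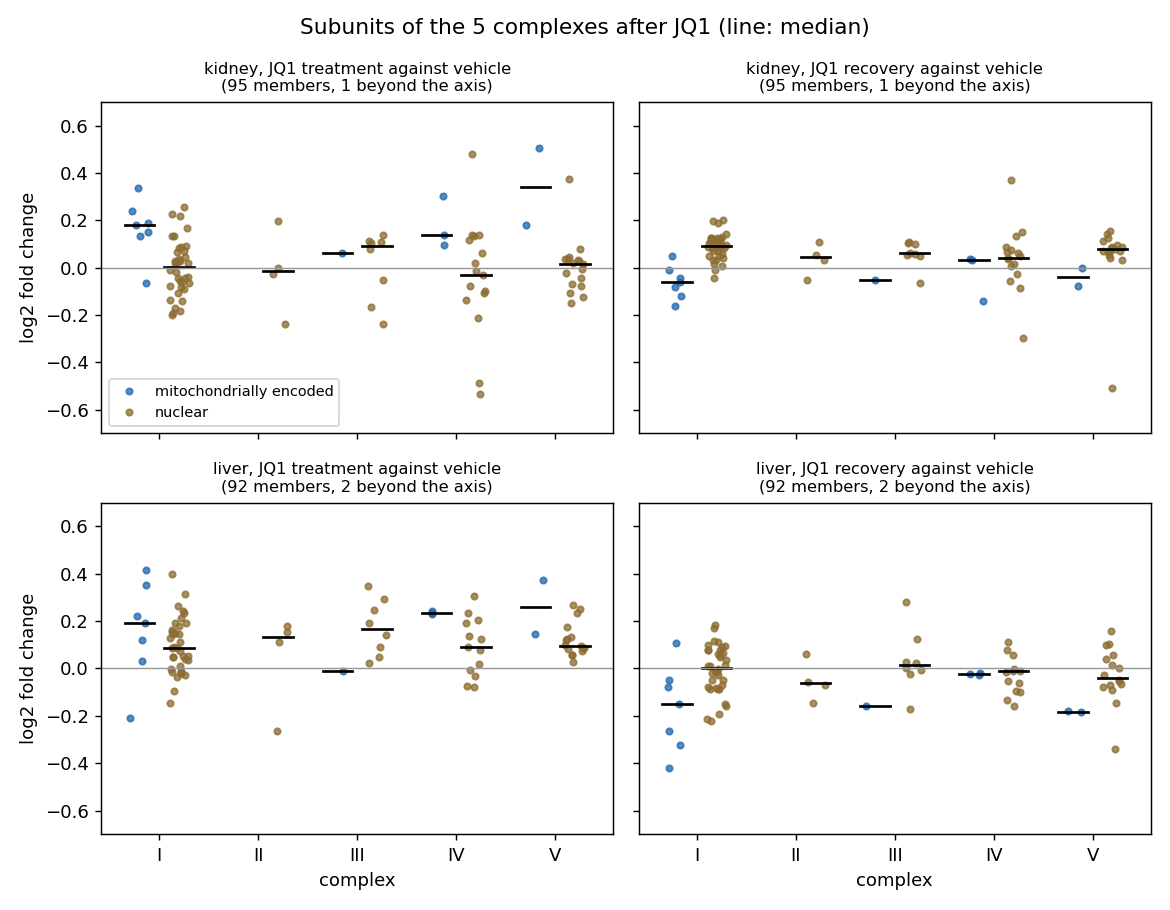
Log2 fold changes of the tested members against vehicle by complex, for JQ1 treatment and JQ1 recovery in kidney and liver, with each point a gene and each line a median, and members outside the axis range counted in the panel titles. In JQ1 treatment kidneys the mitochondrial medians of complexes I and V (0.18 and 0.34) stand above the nuclear medians (0.00 and 0.01).

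The tissue isoforms of complex IV gave the widest nuclear values. Cox8b, a muscle and brown fat form of subunit VIII, had a log2 fold change of -1.22 ± 0.72 that did not pass the test (adjusted p = 0.459), with 8.41, 1.495 and 2.18 CPM in JQ1 treatment kidneys against 10.6, 7.25, 15.1 and 2.99 CPM in vehicle kidneys. Ucp1, the uncoupling protein that marks brown fat, read 10.6, 2.53 and 9.10 CPM against 27.8, 14.8, 32.1 and 4.15 CPM in the same libraries, before TMM scaling. Cox7a1, the heart and muscle form of subunit VIIa, measured 14.6, 18.01 and 17.9 CPM against 26.3, 18.7, 29.7 and 20.1 CPM (log2 fold change -0.49 ± 0.15, adjusted p = 0.0759), and was called only in DESeq2 (0.0449), without a low-count filter (0.00222), without TMM scaling (0.0484) and without kidney vehicle treatment 2 (0.0268). Cox8b and Cox7a1 were both highest in kidney vehicle treatment 3 and 1, the libraries with the most Ucp1, and the part of brown fat RNA in these values was not tested.

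The largest nuclear log2 fold change above 0 in kidney was 0.48 ± 0.31 for Cox6b2, the testis form of subunit VIb (adjusted p = 0.469). The forms that somatic tissues use in bulk were close to 0, for example Cox4i1 with 377 to 431 CPM in JQ1 treatment kidneys against 369 to 401 CPM in vehicle kidneys. Some cell type markers moved in the same comparison, and not every marker list is given here. The proximal tubule markers summed to 4933 to 5411 CPM in JQ1 treatment kidneys against 4408 to 4778 CPM in vehicle kidneys, with 1 of 6 called (Slc34a1, log2 fold change 0.45), the red cell markers to 9080 to 12080 against 4779 to 8246 CPM with 3 of 5 called, and the thick ascending limb markers to 612 to 1142 against 965 to 1120 CPM with 1 of 4 called (Umod, -0.76). The thick ascending limb sums thus lay on both sides of vehicle. The endothelium markers summed to 205 to 226 CPM in JQ1 treatment kidneys against 233 to 245 CPM in vehicle kidneys. The lymphocyte markers summed to 0.194 to 0.704 against 1.80 to 2.70 CPM. The part of these cell types in the subunit values was not tested. Without kidney JQ1 treatment 1, the library with white adipocyte reads, mt-Atp8 stood at 0.50 (adjusted p = 0.00744), mt-Co1 at 0.27 (0.11) and Ndufa12 at 0.26 (0.0871).

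As shares of all reads, the mitochondrial members made up 14.9, 16.9 and 17.1% in JQ1 treatment kidneys, 15.4, 14.6 and 15.4% in JQ1 recovery kidneys, and 15.4, 16.0, 15.7 and 15.8% in vehicle kidneys. These groups overlapped. The nuclear members made up 2.20, 2.72 and 2.48% in JQ1 treatment kidneys, against 2.72, 2.44, 2.72 and 2.74% in vehicle kidneys, also with overlap. Mitochondrial reads per nuclear member read were 6.74, 6.24 and 6.88 in JQ1 treatment kidneys, 5.81, 4.997 and 5.85 in JQ1 recovery kidneys, and 5.65, 6.54, 5.75 and 5.77 in vehicle kidneys, with kidney vehicle treatment 2 inside the treated range. The mitochondrial ribosomal RNAs, which poly(A) selection captures only in part, took 11.3, 8.93 and 9.63% of reads in JQ1 treatment kidneys, against 9.14, 10.1, 9.09 and 7.12% in vehicle kidneys.

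**Figure D4:**
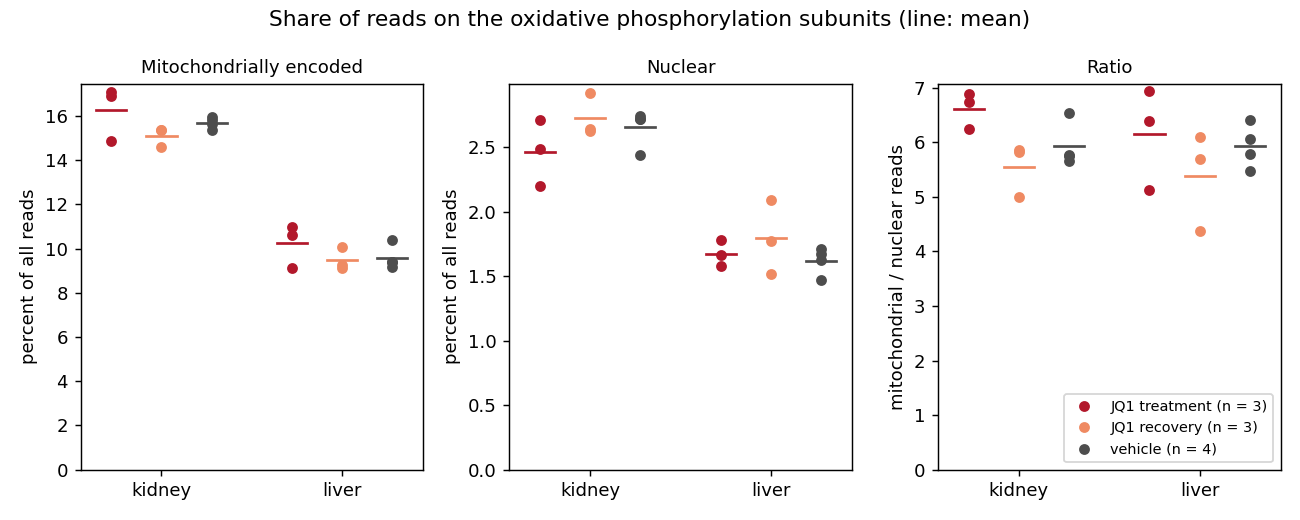
Share of all reads on the mitochondrial members, share on the nuclear members, and the ratio of the 2 in each library, by organ and group, with the group mean as a line. In kidney the JQ1 treatment ratios of 6.24 to 6.88 overlap the vehicle ratios of 5.65 to 6.54, and the 2 organs have ratios in the same range.

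To ask the same of liver, its 3 JQ1 treatment libraries were set against 4 vehicle libraries. Most subunits of both genomes had log2 fold changes above 0, but none of the 92 members tested was called by edgeR, against 0.495% of 14559 genes (0.268% higher and 0.227% lower). At an unadjusted p below 0.05 there were 11 members, and DESeq2 called 3, all higher, beside 1.02% of all genes called higher. Leaving out liver JQ1 recovery 2 and 3, which share the fit and its estimate of spread, raised the count to 3 members, all higher, beside 2.3% of 15558 genes called (1.11% higher and 1.19% lower). These were mt-Nd3, Ndufa12 and mt-Nd1, the same 3 genes that DESeq2 called, and this fit was added after the kidney marker reads had been seen.

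mt-Nd3, a core membrane subunit of complex I, measured 1534, 1768 and 1941 CPM in JQ1 treatment livers, against 1317, 1199, 1342 and 1386 CPM in vehicle livers. The groups did not overlap, and the log2 fold change was 0.41 ± 0.13 with all libraries in the fit (edgeR adjusted p = 0.219) and 0.40 without liver JQ1 recovery 2 and 3 (adjusted p = 0.0194). Its copy Gm28438 held 39.0 to 53.2% of the summed reads in liver, and the value with the copy added was 0.44 (adjusted p = 0.194).

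Ndufa12 was above vehicle in liver as in kidney, with 87.2, 109.9 and 112 CPM in JQ1 treatment livers against 84.1, 78.4, 72.0 and 78.4 CPM in vehicle livers. The lowest treated library lay close to the highest vehicle library. The log2 fold change was 0.40 ± 0.10 (edgeR adjusted p = 0.141), and 0.39 without the 2 recovery livers that carry kidney marker reads (adjusted p = 0.039).

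mt-Nd1, another core subunit of complex I, gave 9816, 10420 and 8977 CPM in JQ1 treatment livers, against 7787, 8372, 7240 and 7079 CPM in vehicle livers, again without overlap. Its log2 fold change was 0.35 ± 0.15 (edgeR adjusted p = 0.468) and 0.34 in the fit without those libraries (adjusted p = 0.046). mt-Atp8 gave 701, 739 and 545 CPM against 551, 497, 586 and 407 CPM in liver, so its groups overlapped (log2 fold change 0.37 ± 0.16, adjusted p = 0.488). mt-Co1 and mt-Nd5 stood at 0.23 ± 0.14 and 0.19 ± 0.15 (adjusted p = 0.655 and 0.763).

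Of the 13 mitochondrial members in liver, 11 had log2 fold changes above 0, and 6 (mt-Atp6, mt-Co1, mt-Co2, mt-Co3, mt-Nd1 and mt-Nd3) had every JQ1 treatment library above every vehicle library, against 6.79% of all genes tested. Among nuclear members 64 of 79 were above 0 and 11 lay wholly above vehicle (Atp5g3, Atp5mpl, Cox6a1, Cox7c, Ndufa1, Ndufa12, Ndufa4, Ndufa7, Ndufb1, Ndufc1 and Sdhc), with none wholly below, against 6.13% of all genes. Over all genes tested 50.3% were above 0. The medians were 0.22 for the mitochondrial members, 0.10 for the nuclear members and 0.00 for all genes. With library size alone they were 0.17, 0.03 and -0.06 in turn, so counts above 0 depend on the scaling. Against the 3 vehicle libraries of the same time alone, the mitochondrial median was 0.12.

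By complex, the liver nuclear medians were 0.09, 0.13, 0.17, 0.09 and 0.10 for complexes I to V, and all 16 nuclear members of complex V and all 8 of complex III tested had values above 0. The largest nuclear values were 0.78 ± 0.67 for Ndufa4l2 (adjusted p = 0.793) and -3.27 ± 1.88 for Cox6a2 (adjusted p = 0.642), each with under 2 CPM in every liver. Cox6a2, the striated muscle form of subunit VIa, read 0, 0.0798 and 0 CPM in JQ1 treatment livers against 1.14, 0, 0.120 and 0.116 CPM in vehicle livers, and the 1.14 CPM belonged to the vehicle library with skeletal muscle reads. Cox6a2 passed the low-count filter through that library and liver JQ1 recovery 2 and 3 (1.755 and 0.760 CPM before TMM scaling), and no treated liver. Ndufa4l2 passed it through JQ1 livers and no vehicle liver. The filter therefore favoured these directions, and the tests do not bear on them. Sdhb, the iron-sulfur subunit of complex II, had the lowest value among well-expressed members at -0.26 ± 0.13 (adjusted p = 0.564).

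The kidney and liver responses were then compared directly in a fit of all 20 libraries. No member differed between the organs in its JQ1 treatment effect, beside 0.169% of 17710 genes (0.0339% with the higher effect in kidney and 0.136% with the lower), and 3 members had an unadjusted p below 0.05. DESeq2 also called none. The largest difference relative to its error was -0.47 ± 0.14 for Uqcrfs1 (unadjusted p = 0.00235, adjusted p = 0.281), whose CPM was 349.8 to 375 in JQ1 treatment kidneys against 385.5 to 445 in vehicle kidneys, while JQ1 treatment livers held 242, 270.4 and 281 CPM with a mean of 264 and vehicle livers a mean of 223. For mt-Atp8 the difference was 0.14 ± 0.20 and for mt-Nd3 -0.17 ± 0.12.

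After withdrawal the mitochondrial genes of the kidney lay near the pooled vehicle kidneys. Of these, 3 were 10 weeks old and 1 was 16 weeks old like the recovery kidneys, so age was not held equal. In JQ1 recovery kidneys against vehicle no member was called, beside 0.00583% of all genes, and 4 members had an unadjusted p below 0.05. DESeq2 called none either. The mitochondrial median was -0.05, with 3 of 13 above 0, while 72 of 82 nuclear members were above 0 with a median of 0.08. Over all genes 48.6% were above 0. mt-Atp8 measured 776, 644 and 749 CPM in JQ1 recovery kidneys, within the vehicle range of 634 to 848 CPM (log2 fold change -0.08 ± 0.09, edgeR adjusted p = 0.855), and mt-Co1 stood at -0.14 ± 0.08 (adjusted p = 0.63). The 16-week-old vehicle kidney was the lowest vehicle kidney for both, at 634 and 3021 CPM. All recovery kidneys were above it for mt-Atp8, and they lay on either side of it for mt-Co1. Of the nuclear members 11 had every recovery library above every vehicle library, or 13.4% against 5.26% of all genes, and none had every one below (5.2% of all genes). Among the 11 were Atp5d, Atp5e, Atp5g1 and Atp5pb of complex V and Ndufa6, Ndufa7, Ndufb6, Ndufs6 and Ndufv2 of complex I. The extremes were Cox6a2 at 0.37 ± 0.32 and Cox8b at -1.64 ± 0.74 (adjusted p = 0.772 and 0.576).

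In JQ1 recovery livers against vehicle no member was called either, beside 0.0343% of all genes (0.0137% higher and 0.0206% lower), with 2 members at an unadjusted p below 0.05. Age was not held equal here either, since 3 vehicle livers were 10 weeks old and 1 was 16 weeks old. DESeq2 called 1, lower (Atp5g1, adjusted p = 0.046), beside 1.39% of all genes called lower. The medians were -0.15 for the mitochondrial and -0.01 for the nuclear members, and without liver JQ1 recovery 2 and 3, which leaves a single recovery library assumed to vary as the others do, -0.08 and -0.14. With library size alone they were 0.02 and 0.17, beside 0.19 for all genes, so the direction depends on the scaling. Atp5g1, which encodes subunit c of the ATP synthase rotor, measured 195, 164 and 213 CPM in JQ1 recovery livers, against 250.1, 258, 229 and 226 CPM in vehicle livers. The groups were apart (log2 fold change -0.34 ± 0.11, edgeR adjusted p = 0.155, and -0.31 with an adjusted p of 0.927 without liver JQ1 recovery 2 and 3), as they were, in the same direction, for 6 other nuclear members, against 6.13% of all genes below vehicle and 5.45% above. Ndufa4l2, a hypoxia-inducible relative of Ndufa4, measured 1.59, 0.742 and 1.25 CPM in JQ1 recovery livers 1, 2 and 3, against 0.304, 0.362, 0.300 and 0.464 CPM in vehicle livers. The log2 fold change was 1.71 ± 0.63 (edgeR adjusted p = 0.195), and 2.11 without recovery livers 2 and 3. Ndufa4l2 passed the low-count filter in liver through JQ1 libraries and no vehicle library. The filter therefore favoured a rise, and the test does not bear on the direction. Kidneys held 1.53 to 4.32 CPM of Ndufa4l2. Recovery liver 1, the highest, had 4.37 CPM of proximal tubule markers, and recovery liver 2, the lowest, had 1905 CPM. The part of kidney RNA was not tested.

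Within the JQ1 mice, the treatment libraries were compared with the recovery libraries, which also differ in age. In kidney 4 members were higher and 4 lower at treatment, of 95, beside 2.41% and 4.91% of all genes (7.31% in all). With library size alone the split was 3 higher and 5 lower. All 4 higher members were mitochondrial: mt-Atp8 (log2 0.58 ± 0.10), mt-Co1 (0.44 ± 0.09), mt-Nd5 (0.46 ± 0.10) and mt-Nd3 (0.25 ± 0.07). All 4 lower members were nuclear and were named because they were called: Ndufa13 (-0.38 ± 0.09) and Ndufa9 (-0.27 ± 0.08) of complex I, Sdhb of complex II (-0.34 ± 0.10) and Uqcrfs1 of complex III (-0.29 ± 0.07). The medians were 0.21 for the mitochondrial and -0.07 for the nuclear members.

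In JQ1 recovery kidneys mt-Co1 measured 3266, 3007 and 3282 CPM, mt-Nd5 2502, 2006 and 2548 CPM, and mt-Nd3 2288, 2178 and 2288 CPM, all under the treatment values given above. The single vehicle kidney of 16 weeks was also below the 3 vehicle kidneys of 10 weeks for mt-Atp8 (634 against 772 to 848 CPM), mt-Co1 (3021 against 3502 to 3769 CPM) and mt-Nd5 (2221 against 2497 to 2904 CPM), and the 16-week-old vehicle liver was the lowest vehicle liver for the same 3 genes (407, 2272 and 1182 CPM). For mt-Nd3 the 16-week-old vehicle kidney was the highest vehicle kidney, at 2489 CPM. Age and time after dosing cannot be told apart in this comparison.

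Of these 8 calls, mt-Atp8 and mt-Co1 held in 6 of 6 fits that left out a library, with mt-Co1 lost when its copy was added (0.86, adjusted p = 0.33). mt-Nd5 held in 5 of 6 and was lost without kidney JQ1 recovery 2. The others were lost more often, mt-Nd3 in 6 of 6, Ndufa9 in 5, Ndufa13 and Sdhb in 4 each and Uqcrfs1 in 3, each library of the comparison costing at least 1 of these calls. All 4 lower calls were lost without kidney JQ1 treatment 1, the library with white adipocyte reads. They were also all lost without kidney JQ1 recovery 1, which had 20.6 CPM of white adipocyte markers. The part of adipocyte reads was not tested.

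Ndufa13, an accessory subunit of complex I, measured 158, 191 and 172 CPM in JQ1 treatment kidneys against 229, 244 and 207 CPM in JQ1 recovery kidneys. Sdhb measured 197, 254 and 228 CPM against 282, 316 and 265 CPM. In each gene the groups did not overlap, and the vehicle kidneys (181 to 221 CPM for Ndufa13, 233 to 289.9 CPM for Sdhb) reached into both ranges. Over the nuclear members, 4 lay wholly above and 17 wholly below recovery, or 4.88% and 20.7%, against 12.5% and 14.7% of all genes, while 9 of 13 mitochondrial members lay wholly above. In liver none of 92 members was called between these times, beside 2.29% of all genes (1.31% higher and 0.989% lower), with 19 at an unadjusted p below 0.05 and 8 called higher by DESeq2, which called 3.54% of all genes higher. In the liver libraries 6 mitochondrial and 13 nuclear members lay wholly above recovery and 1 nuclear member below, against 11.3% and 9.96% of all genes. The medians were 0.31 for the mitochondrial and 0.12 for the nuclear members, beside -0.02 for all genes. With library size alone they were 0.09, -0.13 and -0.25 in turn, so the sign of the nuclear median depends on the scaling. Of the 3 recovery livers, 2 and 3 are the ones with kidney marker reads, and leaving both out, so that a single recovery library is assumed to vary as the others do, again gave no call among 93 members, beside 138 of 15558 genes, with medians of 0.27 and 0.22.

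The 2 organs were compared in vehicle mice. With TMM scaling 51 of 95 members differed, 15 higher and 36 lower in kidney, beside 61.8% of all genes, 32.1% higher and 29.6% lower. With library size alone 88 were higher and 1 lower, beside 66.7% and 12.1% of all genes, and the median of all genes moved to 0.91 against 0.06 with TMM. Values are therefore read relative to that median, and the direction for a single subunit depends on the scaling.

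On the TMM scale the mitochondrial median was -0.10 and the nuclear median -0.13. Against this background a few complex IV isoforms stood far above in kidney. Cox8b was higher by 4.91 ± 0.96 on the log2 scale, with 2.99 to 15.1 CPM in vehicle kidneys against 0 to 0.684 CPM in vehicle livers. Ucp1 read 4.15 to 32.1 CPM in the same kidneys and 0 CPM in the same livers, before TMM scaling, and the part of brown fat RNA was not tested. Cox8b and Cox6b2 did not pass the low-count filter in liver alone, with at most 19 and 15 reads in any liver library. They entered this fit through their kidney reads, so the filter set their direction and their test does not bear on it. Cox6b2, Ndufa4l2, Cox7a1 and Cox6a2 followed at 2.38 ± 0.50, 2.25 ± 0.45, 1.93 ± 0.34 and 1.81 ± 0.77, of which the call for Cox6a2 (adjusted p = 0.0479) was lost in 6 of 8 fits that left out a library. Ndufa4l2 and Cox6a2 passed the filter in liver alone, yet vehicle livers held only 0.300 to 0.464 and 0 to 1.14 CPM of them. Their kidney reads were enough to enter this fit, so their test bears little on the direction. The common partners of these isoforms, Cox6b1, Cox7a2 and Cox6a1, were at -0.16, -0.11 and -0.13 and were not called. Cox8a was at 0.30 (adjusted p = 0.00317) and Ndufa4 at -0.67 (adjusted p = 1.83e-06).

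The abundant form dominated each isoform pair in both organs. Cox4i1 averaged 1322 TPM in vehicle kidney and 487 TPM in vehicle liver, against 0.540 and 0.0468 TPM for Cox4i2. Cox7b averaged 392.5 and 185 TPM against 0.0778 and 0.153 TPM for Cox7b2, Cox8a 2179 and 636 TPM with Cox8c at 0 and 0.400 TPM, and Cox7a2l 191 and 86.7 TPM. Among the 3 genes for subunit c, Atp5g3 averaged 2988 and 1122 TPM and Atp5g1 199 and 99.1 TPM. Atp5g2 had 1.18 and 0.356 TPM, but its copy Gm10175 is identical over 645 bases and took 99.5 to 99.96% of their summed reads in every library, so the level of Atp5g2 is uncertain. Cox7c shares reads in the same way with Cox7c-ps1, which took 69.2 to 75.8%.

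The lowest members in kidney relative to liver were Uqcrq of complex III at -1.22 ± 0.08 and Sdhd, the membrane anchor of complex II, at -1.05 ± 0.11 (edgeR adjusted p = 2.2e-11 and 8.24e-08). By complex, 6 nuclear members of complex I were higher and 14 lower, 1 and 2 in complex II, 0 and 4 in complex III, 6 and 4 in complex IV, and 2 and 9 in complex V.

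**Figure D5:**
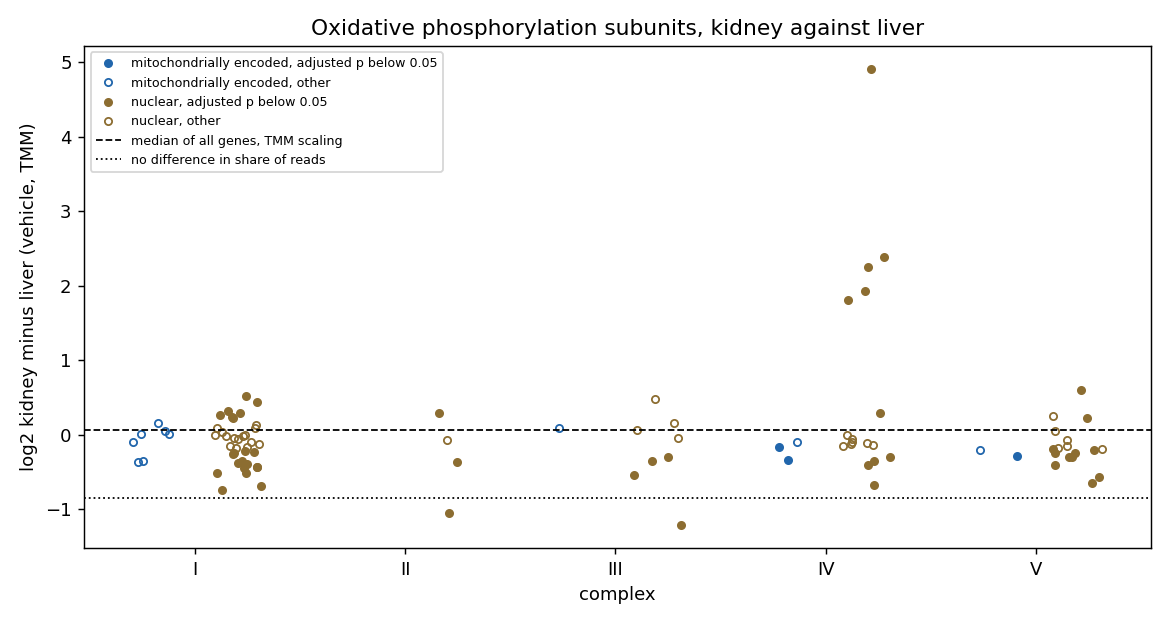
Log2 difference of kidney minus liver in vehicle mice for the 95 tested members by complex, on the TMM scale, with filled points for an edgeR adjusted p below 0.05. The dashed line is the median of all genes (0.06), and a gene with the same share of reads in both organs would lie on the dotted line. Cox8b (4.91) is the highest member and Uqcrq (-1.22) the lowest. Cox8b did not pass the low-count filter in liver alone and entered the fit through its kidney reads.

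Nuclear subunit genes are known to be driven by the factors NRF1, GABPA and YY1, and their promoters were searched for these motifs as a feature that the symbol rule did not use. RefSeq promoter windows of GRCm38.p6, 300 bases each, were found for 69 of 87 nuclear symbols. On either strand, the NRF1 core (the half-sites GCGCA and TGCGC side by side) occurred in 5 of 69 (7.25%) against 1.07% of 27025 genes, the looser form GCGCN followed by TGCGC, which includes it, in 17 (24.6%) against 5.19%, the ETS core CCGGAAG in 17 (24.6%) against 9.93%, and the YY1 core AAGATGGCG in 7 (10.1%) against 1.64%. The E-box CACGTG (8.7% against 8.09%) and TATAAA (11.6% against 15.7%) were near the share of all genes. The Cox6a1 promoter, on the minus strand at chr5:115348909-115349208, is shown because it holds the strict NRF1 core, the looser form and an ETS core, in capitals in that order.
Cox6a1 promoter: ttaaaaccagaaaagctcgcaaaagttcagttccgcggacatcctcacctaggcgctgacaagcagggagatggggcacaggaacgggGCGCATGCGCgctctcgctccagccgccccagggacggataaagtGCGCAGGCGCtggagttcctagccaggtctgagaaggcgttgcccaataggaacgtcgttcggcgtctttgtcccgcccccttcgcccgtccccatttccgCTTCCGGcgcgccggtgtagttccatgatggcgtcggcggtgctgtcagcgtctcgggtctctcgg
The median log2 fold change in JQ1 treatment kidneys was -0.02 over the 16 tested members with the looser NRF1 form and 0.03 over the 51 without, and in livers 0.11 over 15 and 0.10 over 49. A match describes these letters only.

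Other genes of the pathway were read in the JQ1 treatment kidneys beside the 1.4% of all genes called higher and the 2.73% called lower. Among 7 tested subunits and carriers that the symbol rule leaves out, 2 rose: Cycs, the electron carrier cytochrome c (0.36 ± 0.09, adjusted p = 0.0232), and Dmac2l, an ATP synthase-associated protein (0.63 ± 0.13, adjusted p = 0.00967). Cycs measured 445, 398 and 444 CPM in JQ1 treatment kidneys against 350.4, 293, 304 and 391 CPM in vehicle kidneys, so the groups were apart by little. Of 55 assembly factors 1 rose (Uqcc2, which acts in building complex III, 0.32, adjusted p = 0.0464), and of 16 citric acid cycle genes 1 rose (Idh3a, 0.29, adjusted p = 0.0194).

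Of 80 mitochondrial ribosomal proteins 3 fell (Mrpl44, Mrps2 and Mrps35, at -0.51, -0.43 and -0.34), which is near the share of all genes. None of 34 genes for mitochondrial DNA expression or 19 regulators of mitochondrial biogenesis was called, with Tfam at 0.08, Nrf1 at -0.09 and Ppargc1a at 0.06. In the JQ1 treatment livers none of these lists had a call. The list medians in kidney, between -0.02 and 0.11, can be set beside the -0.01 of all genes.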

How the data were processed

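Kidney and liver RNA of male DBA/2J mice was sequenced by the study as poly(A)-selected, single-end libraries. Per the study's methods the authors trimmed reads with fastp 0.20.1 and quantified transcripts with Salmon 1.10.0 on mouse transcripts. The deposited values are estimated counts per transcript and TPM values, which are divided by an effective transcript length and scaled to a fixed total. Both were made by Salmon without pooling. Transcript names carry gene symbols and biotypes.

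Here each gene's estimated counts were added up and rounded to whole numbers. edgeR 4.0.16 (R 4.3.3) was run with TMM scaling, a low-count filter (filterByExpr, minimum count 10, minimum total 15), a robust quasi-likelihood fit of the 10 libraries of an organ in 3 groups, and Benjamini-Hochberg adjustment over all genes tested, with calls at 0.05. Kidney and liver were compared in a fit of all 20 libraries. Unless stated otherwise, adjusted p-values are from edgeR, errors beside log2 fold changes are SE, and CPM of members are TMM scaled, while levels per kilobase and marker sums are not. DESeq2 1.42.0, other scalings, filters, controls and sets of libraries, and a replicate block were tried as alternatives. The script was tested on simulated counts. Near-identical copies were found with BLAST 2.17.0 (at least 99% identity over at least 300 bases). Figures and tables were made with Python 3.11.15, pandas 2.3.3, numpy 2.4.6 and matplotlib 3.10.9. Adjusted p-values rest on 3 to 4 libraries per group, and counting error is small for the mitochondrial members other than mt-Nd6, which had 103 to 327 reads per library.

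Members and gene lists were chosen with earlier results of these data known. Named genes are all 13 mitochondrial members, nuclear members called in a comparison with vehicle, the highest and lowest nuclear TPM per complex and organ, the tissue isoform groups, and the nuclear members with the largest rise and fall in each comparison with vehicle and between organs. Ndufa4 and Ndufa4l2 were counted in complex IV. Any other gene named was chosen after its values were seen. The following members were not tested in either organ: Ndufb11b, Cox4i2, Cox5b-ps, Cox7b2, Cox8c and a second identifier of Atp5o. Cox6b2, Cox8b and Atp5g2 were also not tested in liver alone. A further gene list is not reported here.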

Additional observations from a re-analysis of the deposited data

Results flagged for a closer look

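Among 48 groups of 4 vehicle libraries examined, 5 had a library far from the other 3 by Dixon's criterion, where chance gives about 1 in 20. In kidney vehicle treatment 2, Uqcrfs1 measured 385.5 CPM against 439.7 to 445.4 CPM in the other vehicle kidneys, the nuclear members took 2.44% of reads against 2.72 to 2.74%, and mitochondrial reads per nuclear member read were 6.537 against 5.652 to 5.768. In kidney vehicle recovery 1, mt-Atp8 reads per 100 mt-Atp6 reads were 2.523 against 3.324 to 3.413. In liver vehicle treatment 1, Cox8b measured 0.6835 CPM against 0 to 0.05793 CPM, in the library with 14.8 CPM of skeletal muscle markers.

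Between the 2 times of the JQ1 kidneys 8 members differed by edgeR's quasi-likelihood test. On the log2 scale, treatment minus recovery, mt-Atp8 differed by 0.58, mt-Nd5 by 0.46, mt-Co1 by 0.44 and mt-Nd3 by 0.25, and Ndufa13 by -0.38, Sdhb by -0.34, Uqcrfs1 by -0.29 and Ndufa9 by -0.27. Adjusted p-values ran between 0.000969 for mt-Atp8 and 0.0471 for mt-Nd3. Age differed with time and cannot be told apart from it.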

How the results depend on the processing

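For the 3 members called in JQ1 treatment kidneys, DESeq2 gave 10 (8 higher, 2 lower), relative log expression factors 7, no low-count filter 6 (5 higher, 1 lower) and mitochondrial genes left out of library size 5, while leaving out single libraries gave 1 (JQ1 treatment 3, also vehicle treatment 1) to 5 (vehicle treatment 2). In JQ1 treatment livers, against 0, DESeq2, a fit restricted to the compared libraries and a fit without liver JQ1 recovery 2 and 3 gave 3 each, and leaving out single libraries gave 0. Against 0 in JQ1 recovery livers DESeq2 gave 1. For treatment against recovery in kidney, length-scaled counts gave 5 in place of 8, and leaving out single libraries gave 3 (recovery 1, recovery 2 or treatment 1) to 10 (treatment 2), with 5 without recovery 3 and 4 without treatment 3. In liver, against 0, DESeq2 gave 8, no filter 1, and leaving out single libraries 0 to 4, the highest without recovery 1. Between organs library size alone gave 89 in place of 51, and single libraries left out gave 44 to 49. Over all genes DESeq2 called 1042 in JQ1 treatment kidneys against 709, and 291 in JQ1 treatment livers against 72. Between organs, of the members called with TMM, 31 were called in the opposite direction and 16 in the same with library size alone, where Cox6b1, Cox7a2, Cox6a1 and Ndufa4 stood at 0.70, 0.75, 0.72 and 0.19. For the members named in comparisons within an organ, no call reversed. Causes were not tested. The labels number replicates, but correlations of same-numbered libraries ran between -0.13 and 0.11, so the numbers were not taken as pairs. With a replicate block the kidney calls were 1 for JQ1 treatment against vehicle and 5 for treatment against recovery, and the block moved no other count by more than 1.5 times. Summed nuclear TPM of vehicle mice was 78700 in kidney and 24810 in liver when rescaled to nuclear genes. Depth does not separate mt-Co1, mt-Nd3, Cox7c or Atp5g2 from their copies, and isoforms under 2 CPM in liver rest on few reads.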
